A study of Mus musculus with 8 samples.

Results

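The genes described here make and handle sterols and fatty acids, in the distal colon of mice kept in enriched or conventional housing. They are 35 genes listed by function (cholesterol synthesis, its control by the SREBP system, sterol transport, and fatty acid synthesis) and found by symbol among the 16130 genes of the deposited count table. All 35 of 35 were in the table and all 35 passed the filter on low counts, which kept 14311 genes in all.

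Every animal carried the same alleles, which the labels write as Tcf4Het/+ ApcMin/+, ApcMin being a truncating allele of the tumour suppressor Apc, so both groups share a tumour-prone background and no wild-type colon is compared. The groups differed in how the animals were housed over 4 months: enriched (EE, 4 libraries) or conventional and non-enriched (NE, 4 libraries), with no other treatment. Total RNA of the distal colon was sequenced, and the values are read counts per gene. Whether the libraries are of separate animals is not stated in the labels, so p-values measure only the spread between these samples, which may be technical.

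Cholesterol is built from acetyl-CoA through mevalonate, farnesyl diphosphate and squalene to lanosterol, which is then trimmed to cholesterol, while fatty acids are built from the same acetyl-CoA by carboxylation, chain assembly, desaturation and elongation. Both lines of synthesis are under the SREBP transcription factors, which are held in the endoplasmic reticulum by SCAP and the INSIG proteins while sterols are plentiful and are cleaved and sent to the nucleus when sterols fall. SREBP-2 acts mostly on cholesterol genes and SREBP-1 mostly on fatty acid genes, and sterol excess acts through LXR receptors on the efflux pumps and on the SREBP-1 gene. In the gut the steadily renewed epithelium needs both kinds of lipid for new membranes.

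To show the motifs through which SREBPs and their partners are known to act, stretches of 100 bases upstream of 3 members are given from RefSeq (build GRCm38.p6), all on the plus strand and written 5′ to 3′. They were chosen because Hmgcs1 and Srebf2 hold a match to the sterol response element core TCACNCCA, where N is any base, and because Insig1 holds the E-box CACGTG. In the Hmgcs1 and Srebf2 stretches, which run from 200 to 101 bases before the RefSeq start site, capitals mark TCACNCCA and the CCAAT box read on the other strand as ATTGG. The Insig1 stretch runs from 160 to 61 bases before the start site, and its capitals mark CACGTG. Their positions are chr13:119690151-119690250, chr15:82147069-82147168 and chr5:28071252-28071351, outside the exons GENCODE annotates on that strand.
Hmgcs1: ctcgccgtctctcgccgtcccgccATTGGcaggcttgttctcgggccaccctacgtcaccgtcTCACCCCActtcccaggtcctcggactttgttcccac
Srebf2: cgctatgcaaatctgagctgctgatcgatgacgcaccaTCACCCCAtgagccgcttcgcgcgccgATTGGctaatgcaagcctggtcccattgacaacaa
Insig1: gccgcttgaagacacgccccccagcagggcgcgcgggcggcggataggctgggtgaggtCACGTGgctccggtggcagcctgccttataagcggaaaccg

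RefSeq windows of 300 bases, from 250 before to 50 after a start site, were at hand for 28 of the 35 members. Fdps, Fdft1, Sqle, Stard4, Abcg1, Scd1 and Scd2 had none in the table used. A gene was counted when any of its windows held the motif on either strand, and matches to different motifs may overlap. CCAAT, the box read by NF-Y, was found in 23 of 28 members (82.1%) and in 41.1% of all 27025 genes with a window. GGGCGG, the Sp1 box, was also found in 23 of 28 members (82.1%), against 38.2% of all genes. CACGTG was in 7 of 28 members (25.0%) and 8.09% of all genes, and TCACNCCA in 3 of 28 members (10.7%), namely Hmgcs1, Msmo1 and Srebf2, and 4.97% of all genes. These are counts of letters, and base composition was not matched.

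Counts assigned to genes summed to between 6120185 and 10586851 in the NE libraries and between 4735764 and 6266902 in the EE libraries, and the 35 members together took between 4657 (NE 4) and 6198 (NE 1) CPM (counts scaled to 1e+06 of the library's effective total). Exons of Hmgcs1, Idi1, Fdft1, Lss, Cyp51, Srebf1, Scap, Acss2, Me1, Elovl1 and Elovl6 overlap annotated antisense genes, and their reads cannot be told apart if counting ignored the strand, a setting not given in the sources used here. On the same strand, exons of Fdps overlap Gm43738 over 1124 bases, those of Srebf1 Mir6922 over 66 and those of Scd2 Mir5114 over 61. Reads in these stretches cannot be told apart by strand. Scd1 and Scd2 are related copies, between which short reads could be split. The lowest raw count of any member in any library was 33, for Idi1 in EE 1. Among genes that mark the distal colon, Hoxb13 was between 181 and 259 CPM, Cdx2 between 55.6 and 135 CPM, Muc2 between 1936 and 4734 CPM and Car1 between 937 and 5816 CPM. Each of these had a log2 fold change below 0, from -0.72 (Car1) to -0.028 (Hoxb13), with adjusted p from edgeR of 0.531 (Cdx2) or more. EE 4 stood apart from the other libraries on the first principal component of the 500 most variable genes, at 46.3 against -14.2 to 6.36, an axis that held 58.7% of their variance. Marker genes of several cell types differed between libraries as well, and in bulk RNA fewer cells of a type and less RNA per cell cannot be told apart.

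No member passed the test for a difference between the housing groups. EE was compared with NE by edgeR's quasi-likelihood test over all 14311 genes, adjusted by Benjamini-Hochberg, with 0.05 as the threshold; a log2 fold change is EE minus NE throughout. The test called 0 of 35 members and 0 of all genes tested (0%), and the lowest adjusted p, over members and over all genes, was 0.520. The same count of 0 members came from limma-voom, which called 0% of all genes, and from DESeq2, which called 14 of the 13192 genes to which it gave an adjusted p (0.106%).

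At an unadjusted p under 0.05, 2 members stood higher in EE, Scd1 and Srebf1, where 5.73% of all genes did. On the lower side there was 1 member, Acss2, where 3.75% of all genes were lower. In 1 member, Scd1, all 4 EE values lay above all 4 NE values, as in 2.87% of all genes, and in 0 members did they all lie below, as in 2.02% of all genes. These shares are near the background in both directions. These counts of 3 members moved with single libraries, to 1 without NE 1 or without EE 3, 5 without EE 1 and 7 without EE 2, while the count over all genes, 1357 in the 2 directions together, moved to 665 without NE 1, 720 without NE 2 and 2745 without EE 2. Over the 35 members the median log2 fold change was -0.086, with 13 values above 0 and 22 below, beside a median of 0.0021 and 7200 of 14311 values above 0 over all genes tested. Without NE 1 the median over members was 0.033, with 19 values above 0.

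**Figure D1:**
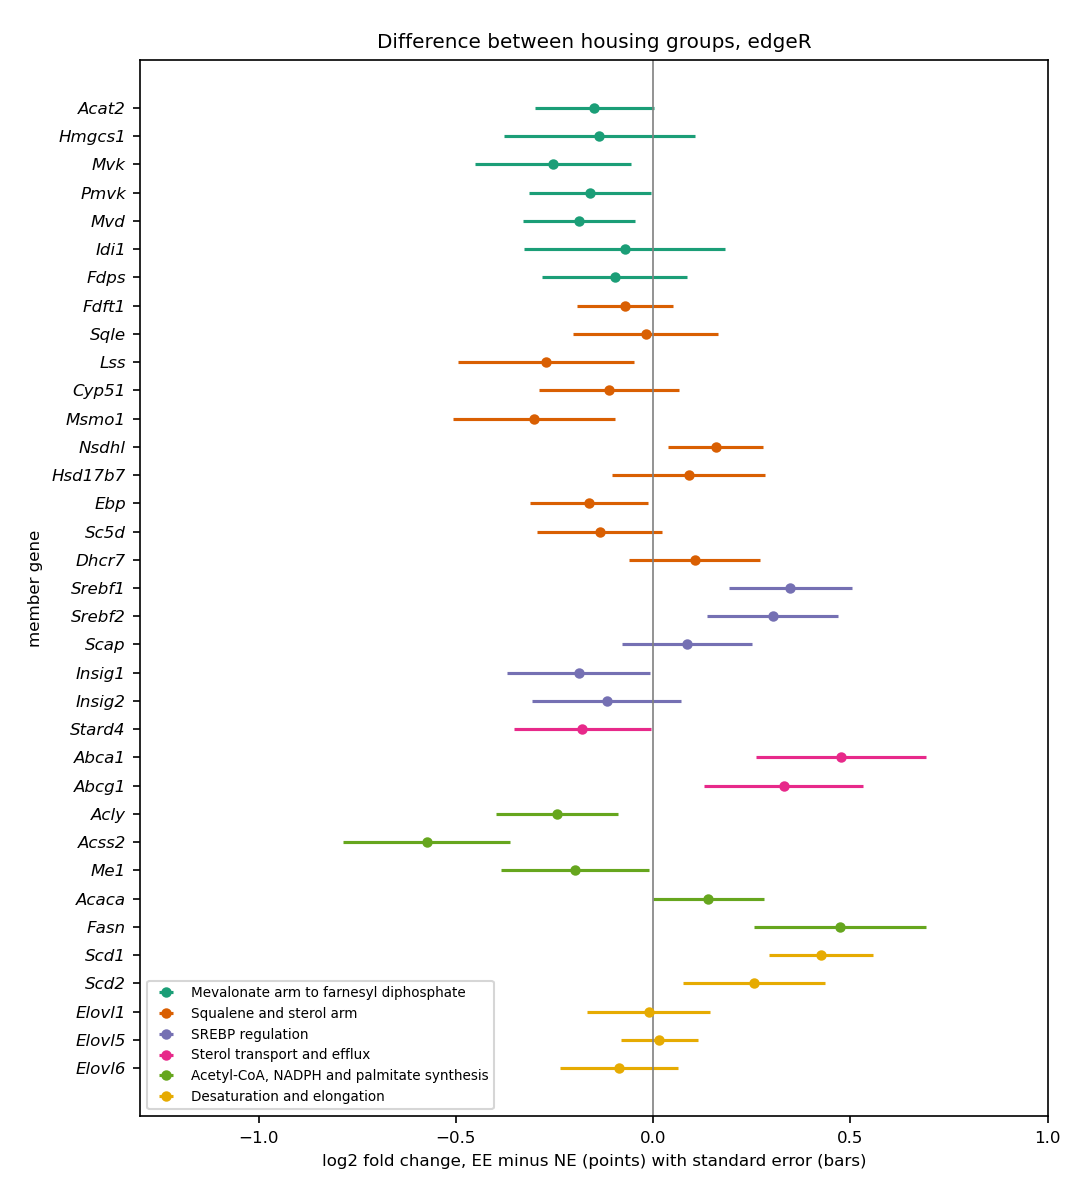
Log2 fold change of each of the 35 members (EE minus NE, horizontal axis) with its standard error as a bar, from edgeR, coloured by role. The 7 mevalonate genes all lie below 0 and the members farthest from 0 are Acss2 at -0.57 and Abca1 at 0.48; 0 of 35 passed the adjusted threshold.

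The mevalonate arm runs from acetyl-CoA to farnesyl diphosphate. All 7 of its log2 fold changes were below 0 (range -0.25 to -0.072, median -0.15), and none passed the threshold. Without NE 1 the median was -0.031, and Hmgcs1 and Fdps were above 0. Hmgcs1, which makes the HMG-CoA from which mevalonate is formed, was the most abundant of the arm per length, at 104 CPM per kilobase of annotated exon (mean of 8 libraries). It stood at 700.2, 512, 389 and 399 CPM in NE 1 to NE 4 and at 519, 606, 330.4 and 366 CPM in EE 1 to EE 4. The highest value was NE 1 and the lowest EE 3, EE 1 and EE 2 lay above NE 3 and NE 4, and the groups overlapped. Group means were 500.2 ± 145 and 455 ± 129 CPM (SD, n = 4 each). Hmgcs1 had a log2 fold change of -0.14, standard error 0.24 (edgeR's quasi-likelihood test, Benjamini-Hochberg adjusted p = 0.836), and without NE 1 it was 0.070.

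Mvd, the decarboxylase that yields isopentenyl diphosphate, had the smallest p of the arm. Its values were 90.9, 68.2, 62.4 and 75.9 CPM in NE 1 to NE 4 and 56.1, 67.2, 65.1 and 72.1 CPM in EE 1 to EE 4, for a log2 fold change of -0.19, standard error 0.14 (edgeR, Benjamini-Hochberg adjusted p = 0.619), and -0.078 without NE 1. NE 1 was again the highest library, and EE 1 the lowest. For Fdps, which joins isoprene units into farnesyl diphosphate, the 4 NE libraries gave 96.8, 58.6, 64.2 and 57.4 CPM and the 4 EE libraries 52.9, 69.9, 72.8 and 62.9 CPM. Here EE 2 and EE 3 exceeded 3 of the 4 NE libraries, and only NE 1 stood above them all. On the log2 scale the fold change of Fdps, -0.097 (standard error 0.18), was 0.11 without NE 1.

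The 4 remaining genes of the arm had overlapping groups. Mvk and Pmvk, the kinases that phosphorylate mevalonate in turn, averaged 45.95 ± 13.6 and 41.1 ± 8.61 CPM in the NE libraries, and 38.5 ± 5.26 and 36.7 ± 2.64 CPM in the EE libraries (SD, n = 4). The cytosolic thiolase Acat2 averaged 50.5 ± 7.29 CPM (NE) and 45.4 ± 6.70 CPM (EE). Idi1, the isopentenyl diphosphate isomerase, was the least abundant member per length, at 2.04 CPM per kilobase, with 7.34 ± 1.45 and 6.98 ± 1.99 CPM in the 2 groups.

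The squalene and sterol arm converts farnesyl diphosphate to squalene, closes the rings and trims lanosterol to cholesterol. Of its 10 members 7 had log2 fold changes below 0 and 3 above (median -0.092), and none passed the threshold; without NE 1 the median was 0.031, with 6 above 0. Sqle, squalene monooxygenase, an oxygen-dependent control point of the arm, was measured at 241, 182, 159 and 154 CPM in NE 1 to NE 4 and at 209.6, 214, 143 and 159.8 CPM in EE 1 to EE 4. NE 1 was the highest, EE 1 and EE 2 came next, and EE 3 was the lowest, so that the means of 184 ± 40.03 and 182 ± 35.7 CPM (SD, n = 4 each) were close. Its log2 fold change was -0.019, standard error 0.18 (edgeR, Benjamini-Hochberg adjusted p = 0.973), and 0.14 without NE 1.

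Lss, lanosterol synthase, closes the sterol rings, and its values were 137, 77.5, 81.5 and 75.6 CPM in the NE libraries and 69.6, 89.6, 56.4 and 91.6 CPM in the EE libraries. NE 1 stood far above its group, while EE 2 and EE 4 lay above the other 3 NE libraries. On the log2 scale the fold change of Lss, -0.27 (standard error 0.22), was -0.026 without NE 1.

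Cyp51, the lanosterol demethylase, was the most abundant of the arm at 70.1 CPM per kilobase. It was at 420.5, 300.3, 261 and 306 CPM in NE 1 to NE 4 and 279.9, 376, 269 and 266 CPM in EE 1 to EE 4, with NE 1 and then EE 2 above the other 6 libraries. Its log2 fold change was -0.11 (standard error 0.18), and 0.043 without NE 1.

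Msmo1, a later oxidase of the trimming steps, had the smallest p of the arm. NE 1 to NE 4 gave 449, 339, 266 and 317 CPM and EE 1 to EE 4 gave 297, 365, 231 and 219 CPM. EE 3 and EE 4 were below all 4 NE libraries, and EE 2 was second only to NE 1. Msmo1 had a log2 fold change of -0.30, standard error 0.20 (edgeR, Benjamini-Hochberg adjusted p = 0.594); it was -0.14 without NE 1 and -0.46 without EE 2, so its size depended on which library was left out.

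The other members of the arm overlapped between the groups. Nsdhl and Hsd17b7, which complete the removal of the methyl groups, averaged 53.2 ± 5.46 and 47.5 ± 8.65 CPM in the NE libraries, and 59.3 ± 5.51 and 50.7 ± 11.98 CPM in the EE libraries (SD, n = 4). Dhcr7, the last reductase, averaged 77.7 ± 8.86 and 83.7 ± 18.8 CPM, and these 3 were the members of the arm with log2 fold changes above 0 (0.16, 0.090 and 0.10). Fdft1, the squalene synthase, averaged 123 ± 16.1 and 117 ± 7.83 CPM. The isomerase Ebp averaged 74.7 ± 10.4 and 66.7 ± 11.1 CPM, and the desaturase Sc5d 122 ± 8.24 and 112 ± 24.9 CPM.

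Across both arms the highest library was more often shared than the lowest. NE 1 was the highest of the 8 libraries for 12 of the 17 enzymes (70.6%) and for 17 of the 35 members (48.6%), where it was the highest for 13.7% of all genes tested. The median over the 17 of log2 CPM, centred on each gene's mean, was 0.39, -0.015, -0.13 and -0.12 in NE 1 to NE 4 and -0.019, 0.21, -0.22 and -0.066 in EE 1 to EE 4. NE 1 and EE 2 had the highest medians in each arm taken alone as well, but the lowest differed: EE 1 in the mevalonate arm (-0.30, with EE 3 at -0.11) and EE 3 in the squalene and sterol arm (-0.28, with EE 1 at 0.038). The lowest single value was in EE 3 for 6 of the 17, in EE 1 and in EE 4 for 4 each, in NE 3 for 2 and in NE 4 for 1. With all 8 libraries 14 of the 17 log2 fold changes were below 0 (median -0.14). Without NE 1 it was 9 of 17 (median -0.0045), and without EE 4 it was 12 of 17 (median -0.077). Leaving out EE 3 also gave 12 of 17 below 0, and leaving out EE 1 gave 16 of 17. Each of the other libraries, left out alone, gave 13 or 14 of 17 below 0. With NE 1 and EE 4 both left out, an alternative chosen after the values were seen, 12 of 17 were above 0 (median 0.036).

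**Figure D2:**
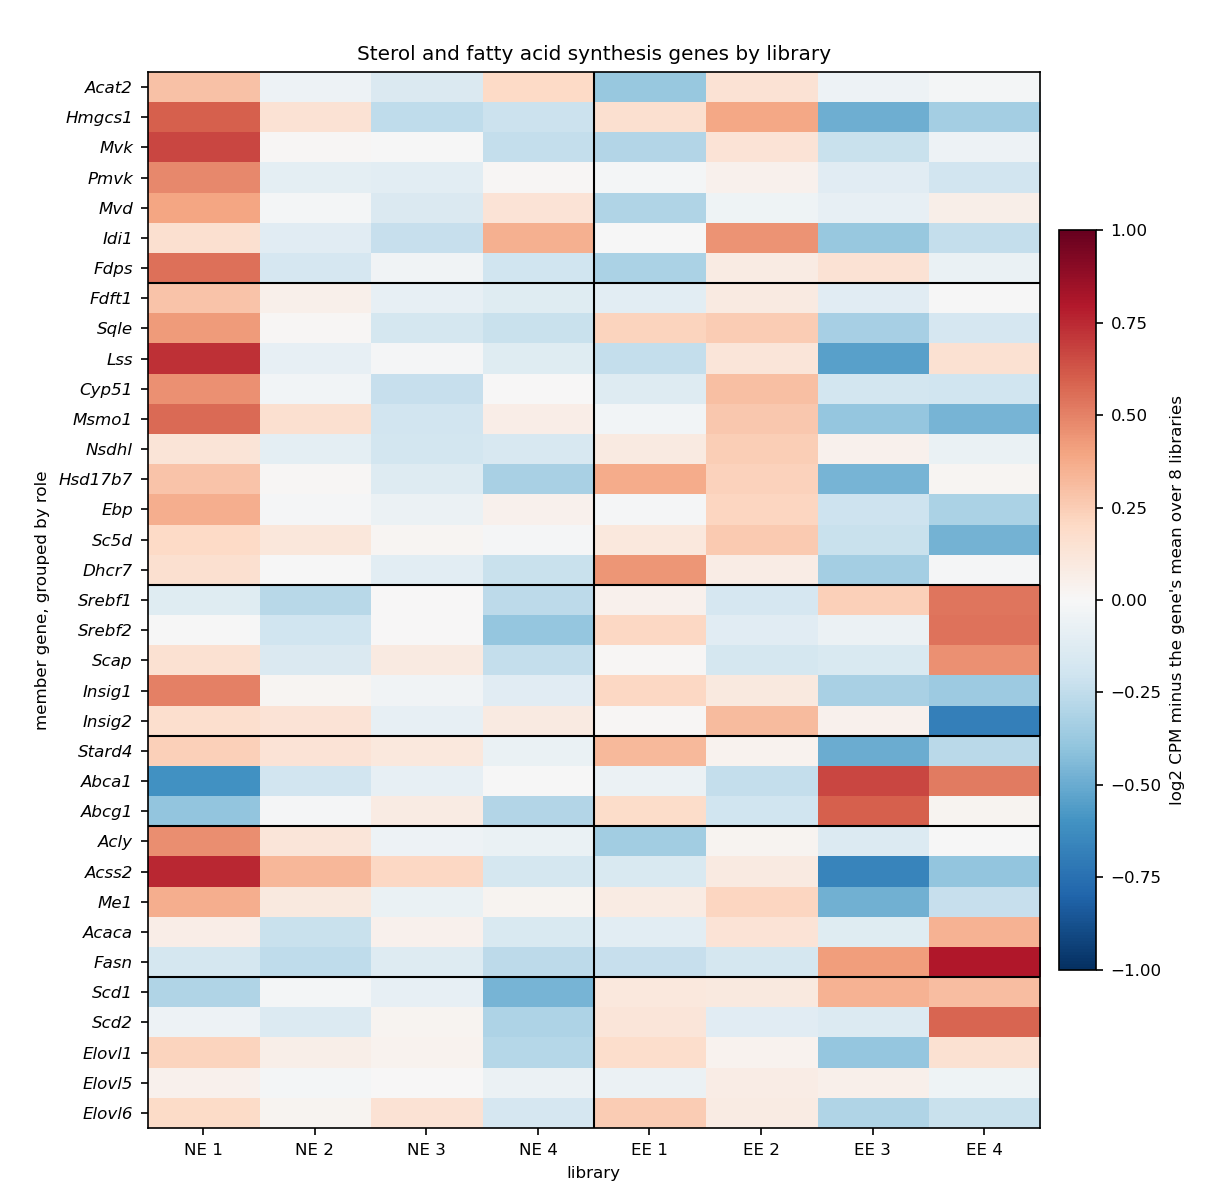
Log2 of CPM + 0.5 of the 35 members (rows, grouped by role) in the 8 libraries (columns), each row centred on its mean over the libraries; red is higher and blue lower. The column of NE 1 is red for most of the 17 cholesterol enzymes at the top and for Acss2, and EE 4 is red for Srebf1, Srebf2, Scap, Fasn and Scd2.

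**Figure D3:**
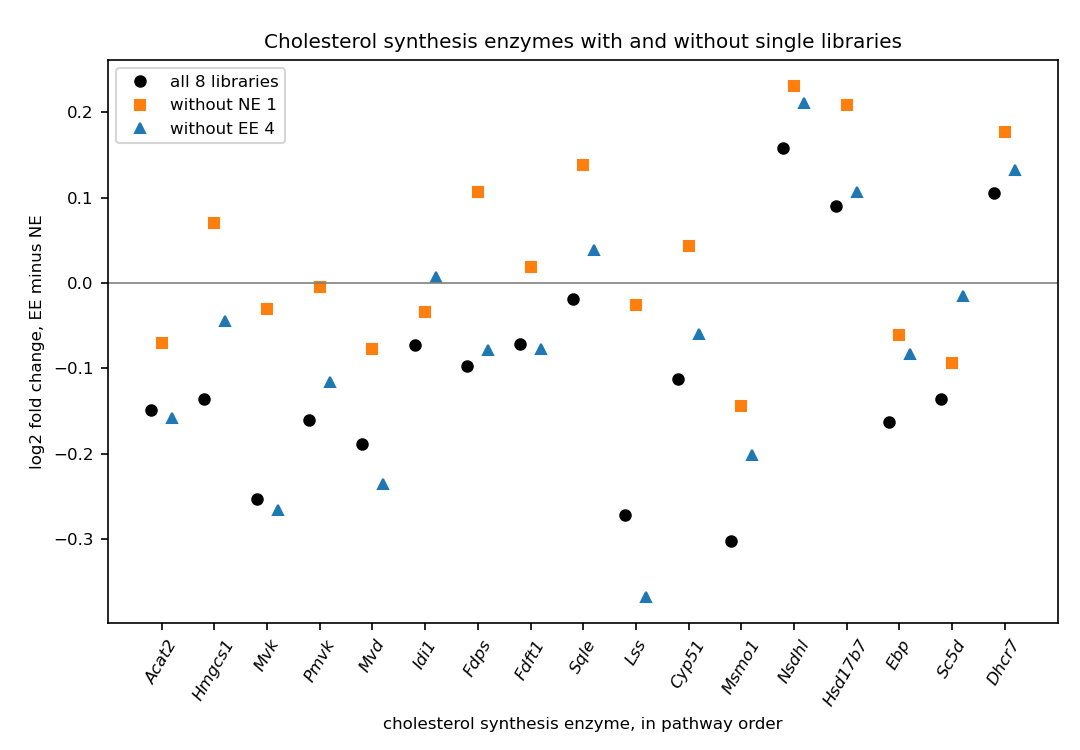
Log2 fold change (EE minus NE, vertical axis) of the 17 cholesterol enzymes in pathway order, with all 8 libraries, without NE 1 and without EE 4. All 17 points move up when NE 1 is left out, and 8 of the 17 are then above 0, against 3 with all libraries. NE 1 lay above the NE mean for all 17, so the upward direction follows from leaving it out and is no separate result.

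Among the regulators, the genes of both SREBPs stood at higher average values in EE and those of both INSIG proteins at lower ones, with none past the threshold. Srebf1 encodes SREBP-1 and was at 112, 101, 123 and 102 CPM in NE 1 to NE 4 and 126, 109, 145 and 178 CPM in EE 1 to EE 4. EE 4, EE 3 and EE 1 lay above all NE libraries and EE 2 lay among them. The means were 109.5 ± 10.2 and 139 ± 29.5 CPM (SD, n = 4 each). Srebf1 had a log2 fold change of 0.35, standard error 0.16, at an unadjusted p of 0.0494, but the adjusted p was 0.520 (edgeR's quasi-likelihood test, Benjamini-Hochberg). Without EE 4 it was 0.22, with an unadjusted p of 0.139.

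Srebf2, which encodes SREBP-2, gave 167, 146, 168 and 128 CPM in the NE libraries and 193, 155, 161 and 244 CPM in the EE libraries. EE 4 and EE 1 were above all NE values, and EE 2 and EE 3 were within their range. Its log2 fold change was 0.30, standard error 0.17 (edgeR, Benjamini-Hochberg adjusted p = 0.544), and 0.16 without EE 4. Scap, the escort protein that carries SREBPs to the Golgi, averaged 58.6 ± 7.63 CPM in NE and 62.2 ± 13.6 CPM in EE. Its highest library was also EE 4, and its log2 fold change of 0.085 was -0.074 without that library. A top value in EE 4 was common in the whole data. EE 4 was the highest library for 25.9% of all genes tested and for 6 of the 35 members (17.1%).

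Insig1 is both a brake on SREBP processing and itself a known SREBP target, and per length it was the most abundant of the regulators (45.7 CPM per kilobase). It stood at 197, 141, 135 and 128 CPM in NE 1 to NE 4 and 161, 149, 111 and 108 CPM in EE 1 to EE 4. NE 1 was the highest library and EE 3 and EE 4 were the lowest, with EE 1 and EE 2 above NE 2 to NE 4. That gave a log2 fold change of -0.19, standard error 0.18 (edgeR, Benjamini-Hochberg adjusted p = 0.691), and -0.031 without NE 1. Insig2, the second brake, averaged 53.9 ± 4.13 CPM in NE and 49.7 ± 13.3 CPM in EE, with its lowest value, 31.6 CPM, in EE 4. Its log2 fold change of -0.12 was 0.055 without EE 4.

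The 3 transport genes differed in direction. Abca1, the pump that loads cholesterol onto apolipoprotein A-I and an LXR target, was at 99.6, 133, 144 and 151 CPM in NE 1 to NE 4 and 146, 128, 241 and 218 CPM in EE 1 to EE 4. EE 3 and EE 4 were above every NE library, EE 1 and EE 2 were within the NE range, and NE 1 was the lowest. Its means of 132 ± 22.7 and 183 ± 54.8 CPM (SD, n = 4 each) correspond to a log2 fold change of 0.48, standard error 0.22 (edgeR, Benjamini-Hochberg adjusted p = 0.520). It was 0.33 without EE 3, 0.36 without NE 1 and 0.61 without EE 2.

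Abcg1, a second sterol efflux transporter, was measured at 12.6, 16.6, 17.7 and 13.6 CPM in the NE libraries and 19.1, 14.5, 25.5 and 17.1 CPM in the EE libraries. EE 3 was the highest and NE 1 the lowest, as for Abca1. For Abcg1 the log2 fold change was 0.33, standard error 0.20, and 0.16 without EE 3. Stard4, a cytosolic sterol carrier, had 238, 221, 216 and 192 CPM in NE 1 to NE 4 and 252, 206, 143 and 167 CPM in EE 1 to EE 4. The EE libraries held both its highest value, in EE 1, and its 2 lowest, in EE 3 and EE 4. Its log2 fold change was -0.18, standard error 0.17, and it was -0.055 without EE 3.

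Supply of acetyl-CoA and the synthesis of palmitate held both the most negative member, Acss2, and one of the most positive, Fasn. Acss2, which makes acetyl-CoA from acetate, stood at 158, 118, 108 and 83.04 CPM in NE 1 to NE 4 and 84.3, 99.7, 59.2 and 71.3 CPM in EE 1 to EE 4. The 3 highest values were NE libraries, and NE 4 lay within the EE range. The means were 117 ± 31.3 and 78.6 ± 17.4 CPM (SD, n = 4 each). Acss2 had a log2 fold change of -0.57, standard error 0.21, at an unadjusted p of 0.0213, with an adjusted p of 0.520 (edgeR's quasi-likelihood test, Benjamini-Hochberg). Without NE 1 it was -0.39, with an unadjusted p of 0.0783, and in 3 places exons of Acss2 overlap antisense genes (Ggt7, Acss2os and Gss).

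Acly, the citrate lyase that is a main source of cytosolic acetyl-CoA, was the most abundant gene of the group, at 84.4 CPM per kilobase. Its values were 606, 479, 425 and 421 CPM in NE 1 to NE 4 and 346, 447, 399 and 438 CPM in EE 1 to EE 4. NE 1 was the highest and EE 1 the lowest, and the other 6 libraries lay between 399 and 479 CPM. Acly had a log2 fold change of -0.24, standard error 0.16 (edgeR, Benjamini-Hochberg adjusted p = 0.580), and -0.12 without NE 1.

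Fasn, the fatty acid synthase that assembles palmitate, gave 366, 346, 377 and 344 CPM in NE 1 to NE 4 and 353, 366, 552 and 720.4 CPM in EE 1 to EE 4. The NE libraries were tightly grouped, EE 1 and EE 2 lay within their range, and EE 3 and EE 4 stood above all others. The means were 358 ± 15.98 and 498 ± 174 CPM (SD, n = 4 each), a coefficient of variation of 4.46% in NE and 34.99% in EE. Fasn had a log2 fold change of 0.47, standard error 0.22 (edgeR, Benjamini-Hochberg adjusted p = 0.520); it was 0.25 without EE 4. Acaca, the carboxylase that makes malonyl-CoA for Fasn, averaged 41.4 ± 4.11 and 45.6 ± 7.22 CPM. Me1, the malic enzyme that supplies NADPH, averaged 18.00 ± 2.44 and 15.7 ± 3.40 CPM, and both overlapped between the groups.

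Of the genes that desaturate and elongate fatty acids, Scd1 was the one member whose groups did not overlap. This stearoyl-CoA desaturase, which makes monounsaturated fatty acids, stood at 59.4, 72.4, 69.2 and 53.04 CPM in NE 1 to NE 4 and 78.99, 78.3, 93.1 and 90.8 CPM in EE 1 to EE 4. The lowest EE library, EE 2, was above the highest NE library, NE 2. The means were 63.5 ± 8.90 and 85.3 ± 7.75 CPM (SD, n = 4 each). Scd1 had a log2 fold change of 0.43, standard error 0.13, and the smallest unadjusted p of the 35 members, 0.00838, with an adjusted p of 0.520 (edgeR's quasi-likelihood test, Benjamini-Hochberg). Leaving out any 1 library gave 0.35 to 0.50, with unadjusted p from 0.00755 to 0.0269.

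Scd2, a related desaturase, was the most abundant of all 35 members per length, at 153 CPM per kilobase, where Scd1 was at 15.2. It was at 794, 749.6, 838 and 664 CPM in NE 1 to NE 4 and 896, 761, 749 and 1232 CPM in EE 1 to EE 4. EE 4 stood far above the rest and EE 1 was next, while EE 2 and EE 3 lay within the NE range. Scd2 had a log2 fold change of 0.26, standard error 0.18 (edgeR, Benjamini-Hochberg adjusted p = 0.607); it was 0.081 without EE 4.

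The 3 elongases had log2 fold changes near 0. Elovl5, which extends polyunsaturated fatty acids, had the lowest spread of all 35 members in each group, with coefficients of variation of 2.94% and 4.52% around means of 93.9 and 94.99 CPM. Elovl1, for very long chains, averaged 70.4 ± 9.94 and 69.9 ± 11.7 CPM, and Elovl6, which extends palmitate, 108 ± 11.8 and 102 ± 18.5 CPM (SD, n = 4). Their log2 fold changes were 0.016, -0.011 and -0.086.

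**Figure D4:**
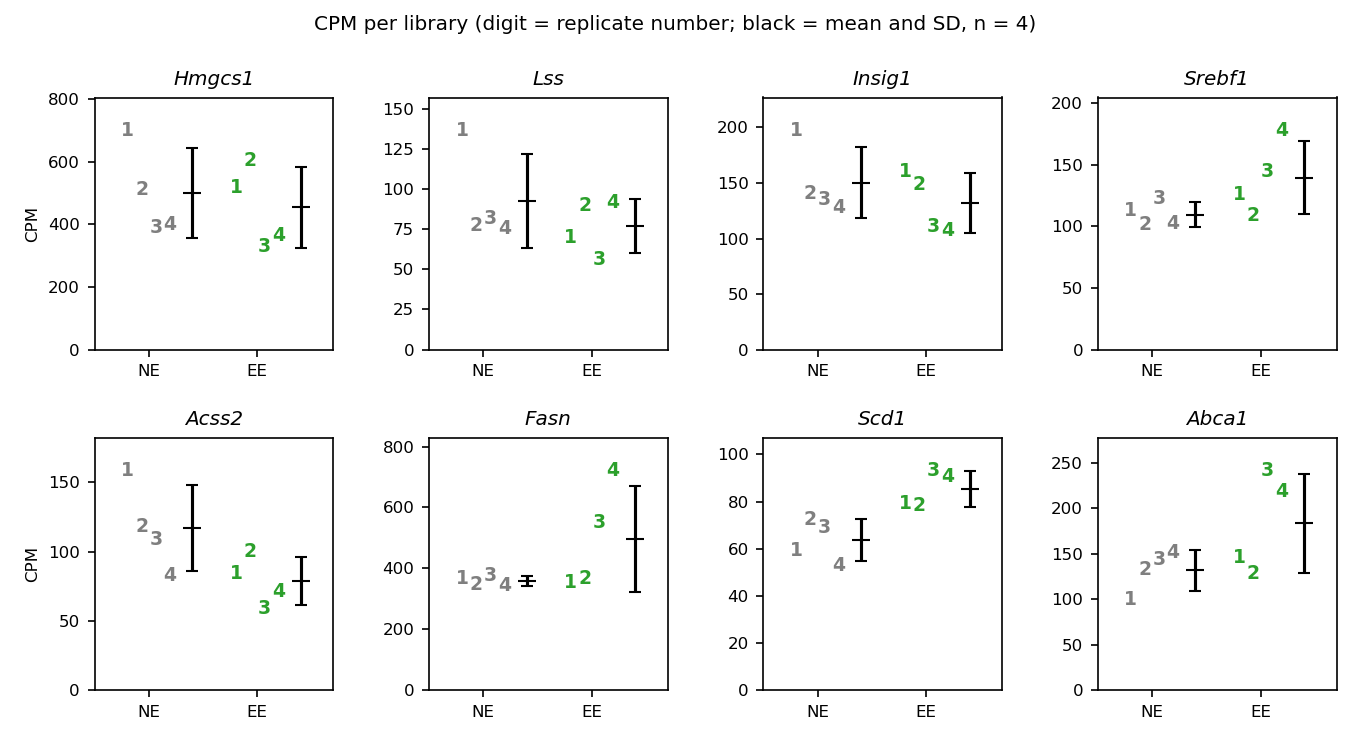
CPM of 8 members in each library (vertical axes, from 0), with digits for the replicate number, NE in grey and EE in green, and the mean with SD in black. Scd1 alone of the 8 has no overlap between the groups; NE 1 is the top value for Hmgcs1, Lss, Insig1 and Acss2, and EE 4 for Srebf1 and Fasn.

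Levels per length spread widely within each role. After Scd2 (153 CPM per kilobase) came Hmgcs1 (104), Acly (84.4), Cyp51 (70.1), Msmo1 (50.5), Insig1 (45.7) and Fasn (39.1), and at the low end stood Me1 (4.38), Acaca (2.55), Abcg1 (2.34) and Idi1 (2.04). The length is that of all annotated exons of a gene together, so levels of genes with many alternative exons are understated.

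Other genes of the pathways, from lists that hold no member, were read from the same fit. Of 23 further sterol genes 22 were tested, 14 with log2 fold changes above 0 and 8 below (median 0.058), and 0 passed the threshold. Npc1, which exports cholesterol from lysosomes, was at 68.7, 70.5, 73.1 and 65.8 CPM in NE 1 to NE 4 and 92.6, 71.8, 88.7 and 107 CPM in EE 1 to EE 4. For Lpcat3, a phospholipid acyltransferase, the NE libraries gave 71.4, 75.5, 81.6 and 61.8 CPM and the EE libraries 98.5, 79.2, 82.5 and 108 CPM. EE 1, EE 3 and EE 4 lay above all 4 NE libraries in both genes, and EE 2 lay among them. Their log2 fold changes were 0.37 and 0.34 with standard errors of 0.13 and 0.14 (edgeR, Benjamini-Hochberg adjusted p = 0.520 for each). The only sterol gene lower in EE at an unadjusted p under 0.05 was Nr1h3, which encodes an LXR receptor and was named after its value was seen, with a log2 fold change of -0.61 (standard error 0.25).

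Of 25 further fatty acid genes 20 were tested, 14 with values above 0 and 6 below (median 0.14), and 0 passed. Fads1, a desaturase of polyunsaturated fatty acids, was at 50.8, 49.6, 60.9 and 58.5 CPM in NE 1 to NE 4 and 60.1, 53.6, 102 and 107 CPM in EE 1 to EE 4. As for Fasn, EE 3 and EE 4 were the high libraries, and EE 1 and EE 2 lay within the NE range. Acacb, the carboxylase linked to fatty acid oxidation, gave 22.9, 25.1, 22.6 and 21.9 CPM in the NE libraries and 19.7, 20.1, 9.37 and 15.9 CPM in the EE libraries, with all EE values below all NE values. Log2 fold changes were 0.55 (standard error 0.22) and -0.52 (standard error 0.22), each with a Benjamini-Hochberg adjusted p of 0.520 by edgeR.

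Summed markers of several cell types also varied between the libraries. The 10 colonocyte markers summed to between 6814 and 11836 CPM in NE, highest in NE 1, and to 8367, 9502, 3867 and 5546 CPM in EE 1 to EE 4; 9 of 10 had log2 fold changes below 0. Car1 alone made up 5816 CPM of the sum in NE 1. By the centred median over the 10 markers NE 2 (0.44) and NE 1 (0.40) were the highest libraries and EE 3 (-1.08) the lowest. All 7 goblet cell markers were below 0, at 22949 to 28827 CPM in NE and 10833 to 26723 CPM in EE. All 10 cell division markers were above 0, at 913 to 962 CPM across the NE libraries and at 1007, 1023, 1281 and 1553 CPM in EE 1 to EE 4, highest in the libraries where Fasn and Abca1 were high.

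Markers of tissue below the epithelium were followed as well. All 10 smooth muscle markers had log2 fold changes below 0, with sums of 3552 to 5727 CPM across the NE libraries and of 4181, 4444, 2339 and 688 CPM in EE 1 to EE 4. All 5 tested of 6 glial markers were below 0, with 14.6 to 26.5 CPM in NE and 4.76 to 17.2 CPM in EE. The 8 macrophage markers, all below 0, summed to 539 to 833 CPM in NE and 281 to 1048 CPM in EE, with the top value in EE 3.

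Fat cells, which express Fasn, Acly and Scd1 strongly, were followed with 10 markers, of which 8 were tested and all 8 were below 0. They summed to 173 to 266 CPM in NE and to 158, 255, 94.1 and 80.4 CPM in EE 1 to EE 4. Pparg alone made up 100.3, 78.1, 88.1 and 64.6 CPM of the sum in NE 1 to NE 4. In EE 1 to EE 4 it made up 79.8, 74.5, 31.9 and 61.7 CPM, so the sums depend heavily on this gene. EE 4 was the lowest library for 7 of the 8 tested markers, all but Pparg. Pparg was highest in NE 1 and lowest in EE 3, as was the sum of the colonocyte markers. The other tested fat cell markers were highest in NE 2 (4 markers) or EE 2 (3 markers). Whether Pparg marks fat cells in these samples was not tested. In EE 4, where Fasn and Scd2 were highest, Adipoq and Plin1 were at 0 counts. Apart from those 2 in EE 4, no tested marker of these 7 lists was at 0 in any library. The part of cell composition in the values of the members was not tested.

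The authors' deposited table gives its own log2 fold change and FDR for each gene. In it the members with the lowest FDR were Acss2 (log2 fold change 0.52, FDR 0.101), Fasn (-0.41, FDR 0.146) and Abca1 (-0.43, FDR 0.179). The sign in the authors' deposited table was opposite to EE minus NE in all 35 members and in 97.8% of genes tested, and its header does not say which group is the numerator. Read as NE minus EE, the deposited values have the direction found here in all 35 members.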

How the data were processed

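Total RNA of 8 distal colon samples was depleted of ribosomal RNA, made into stranded libraries and sequenced single-end for 50 bases, per the labels' protocols. The submitters' processing notes name Novoalign 2.08.01, DESeq 1.14.0 and build mm10. Annotation, counter and strand setting: not given in the sources used here. The authors deposited raw read counts for 16130 genes, whose smallest total over the 8 libraries was 12. Their deposited log2 fold changes and FDR values (adjusted p-values) were used only where the authors' deposited table is named.

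The members and all lists were chosen with earlier results of these data known. Every member is accounted for. CPM per library are given for members of a fixed list, and for the one with the smallest p and the one with the highest level per length in each role. Lss was added after its values were seen. Other pathway genes are named by the 2 smallest p of a list.

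The test was run in edgeR 4.0.16 under R 4.3.3 (filterByExpr, TMM scaling, robust quasi-likelihood test, no covariate), and p-values were adjusted by Benjamini-Hochberg over the 14311 genes kept. Standard errors were obtained as the absolute log2 fold change over the root of F. CPM are edgeR's, scaled by TMM, and log2 CPM had 2 as prior count. The biological coefficient of variation was 0.219. Library totals were 4735764 to 10586851 counts. Alternatives were DESeq2 1.42.0, limma-voom (limma 3.58.1), upper-quartile and RLE scaling, no filter or at least 1 CPM in at least 4 libraries, the non-robust test, a replicate block, leaving out each library, and, added after the data were seen, NE 1 and EE 4 left out together. Adjusted p-values missing from DESeq2 (1119 genes) stayed missing. Symbols are the table's, with 167 entries kept under Ensembl identifiers, and 15948 identifiers matched GENCODE M21 (GRCm38), the source of exon lengths. No pair of libraries agreed within sampling noise (lowest chi-square per degree of freedom 7.15). The tests were checked on simulated data.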

Additional observations from a re-analysis of the deposited data

Results flagged for a closer look

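In 3 of the 70 groups of 4 values tested (35 members in EE and NE), 1 library stood far from the other 3 by Dixon's criterion, which chance meets in about 1 in 20 groups. For Lss, lanosterol synthase, NE 1 was at 137 CPM and the other NE libraries were at 75.6 to 81.5 CPM. For Pmvk, phosphomevalonate kinase, NE 1 was at 53.8 CPM and the other NE libraries were at 35.8 to 38.8 CPM. For Cyp51, the lanosterol demethylase, EE 2 was at 376 CPM and the other EE libraries were at 266 to 280 CPM. The 3 flags in 70 groups are near the rate that chance gives, and the same count was not made over all genes. The 3 genes are cholesterol enzymes, as are 17 of the 35 members. The median of these enzymes was highest in NE 1 and EE 2, but it comes from the same values and is no separate support.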

How the results depend on the processing

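All 35 members kept the direction of their log2 fold change under DESeq2, limma-voom, RLE and upper-quartile scaling, both other filters, the non-robust test and the replicate block, and 0 members passed the adjusted threshold under any of these or with any library left out. DESeq2 called 14 genes in all, and 5 members at an unadjusted p under 0.05, where edgeR found 3. With the replicate block, 0 genes passed, 1406 genes had an unadjusted p under 0.05, and 3 members did. Same-numbered libraries were not treated as pairs, because not every correlation of their deviations was over 0.1, the rule used. The correlations were 0.25, 0.010, -0.18 and -0.037, and not every library correlated best with its own number. Such a check cannot show that the numbers carry no pairing.

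Leaving out each library in turn gave 0 to 1 genes past the threshold (1 without EE 2), 665 to 2745 genes and 1 to 7 members at an unadjusted p under 0.05. Signs of small log2 fold changes turned with single libraries, and the ranges were -0.30 to 0.070 for Hmgcs1, -0.18 to 0.11 for Fdps, -0.12 to 0.019 for Fdft1, -0.11 to 0.14 for Sqle, -0.24 to 0.043 for Cyp51 and -0.28 to 0.050 for Idi1. They were -0.024 to 0.24 for Hsd17b7, -0.043 to 0.23 for Dhcr7, -0.074 to 0.16 for Scap, -0.26 to 0.055 for Insig2, -0.098 to 0.11 for Elovl1, -0.0070 to 0.038 for Elovl5 and -0.19 to 0.0014 for Elovl6. With NE 1 and EE 4 both left out, 542 genes had an unadjusted p under 0.05, and 14 members changed sign: Hmgcs1 0.16, Pmvk 0.036, Idi1 0.043, Fdps 0.12, Fdft1 0.0087, Sqle 0.20, Cyp51 0.094, Ebp 0.015, Sc5d 0.023, Scap -0.014, Insig1 0.056, Insig2 0.081, Elovl1 0.010 and Elovl6 0.020. The cause was not tested. With 4 libraries a group and a biological coefficient of variation of 0.219, a missed threshold does not show that a member was equal in the groups.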
